A study of Mus musculus with 12 samples.

Results

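The markers described here are 10 genes that are used to tell monocyte-derived and scar-associated macrophages from the other cells of an injured liver, namely Trem2, Gpnmb, Spp1, Cd9, Lgals3, Lyz2, Ly6c2, Itgam, Itgax and Cd68. They were chosen by name, and every listed protein-coding transcript of each was taken, which gave 26 transcripts of the 10 genes among the 29883 transcripts of 14188 genes in the table. The samples were livers of 12 mice labelled as strain C57BL/8 and named C57BL/6J elsewhere in the study, which were male and 6 weeks old at the start. All 12 mice were given CCl4, a solvent that injures hepatocytes and leads to fibrosis, as an intraperitoneal injection of 10 µl/g of a mixture with corn oil 2 times per week for 8 weeks. The 6 mice of the PZH group also received Pien Tze Huang (PZH), a traditional Chinese medicine, into the stomach each day at 0.25 mg/g, and the 6 mice of the control group received double distilled water instead. No liver without CCl4 was sequenced, so the comparison shows how the marker levels differed with PZH during continued injury and not how far they lay from those of an uninjured liver.

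Monocytes that leave the blood enter the injured liver and mature into macrophages beside the resident Kupffer cells. In scarred tissue a subset of them takes up lipid and cell debris and carries the surface receptor TREM2, the tetraspanin CD9, the membrane glycoprotein GPNMB and the secreted matrix protein osteopontin, which is encoded by Spp1. Lgals3 encodes galectin-3, Lyz2 encodes lysozyme, Cd68 encodes a lysosomal membrane protein of macrophages, Ly6c2 marks inflammatory monocytes, and Itgam and Itgax encode the integrin chains CD11b and CD11c. Several of these genes are also active in other cells of the liver, for example Spp1 and Cd9 in bile duct epithelium and Itgam in neutrophils.

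The 10 markers did not move together. Gpnmb and Trem2 rose in the PZH group, Lgals3, Cd9, Itgam, Ly6c2 and Cd68 fell, and Spp1, Itgax and Lyz2 did not pass the test. Levels are given as FPKM, which scale the fragments of a transcript by its length and by the size of the library, summed over the transcripts of a gene, and differences as log2 fold changes of FPKM + 1, PZH minus control, with limma and Benjamini-Hochberg adjustment over all 14188 genes. A gene was called at an adjusted p under 0.05. Of the 10 markers 7 were called, against 44.8% of all genes. The 2 higher markers compare with 12.7% of all genes called higher, and the 5 lower markers with 32.1% called lower. The median log2 fold change of the markers was -0.37, and that of all genes was -0.11, so the whole distribution was shifted downward in the PZH group. When each mouse was divided by a median-ratio scale factor, which set the median of all genes to 0.01, the share of higher genes among all calls moved from 28.3% to 52.5%, and Trem2, Gpnmb, Cd9 and Lgals3 were the 4 markers still called. In whole tissue, fewer cells of a type and less RNA per cell cannot be told apart.

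**Figure D1:**
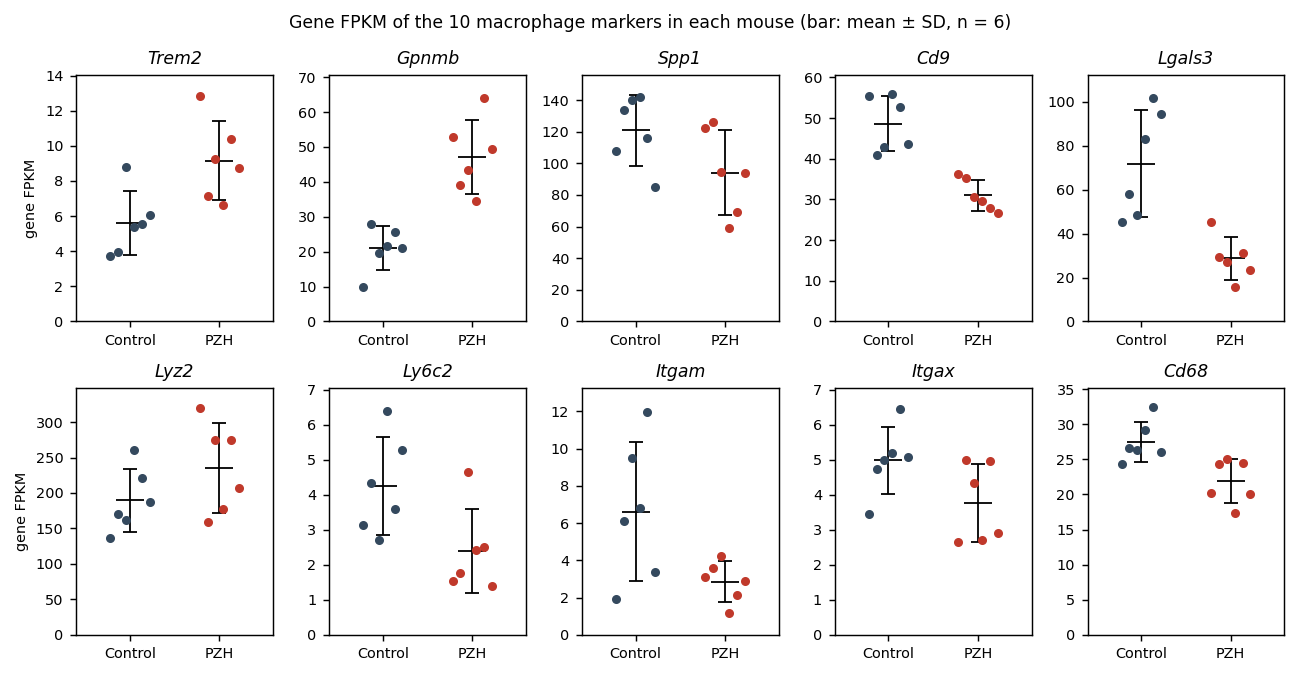
Gene FPKM (y axis, linear, from 0) of each of the 10 markers in the 6 control mice (dark) and the 6 PZH mice (red), 1 point per mouse, with the group mean and SD as a bar. The groups do not overlap for Gpnmb, which is higher in the PZH mice, and for Cd9, which is lower, while the points of Spp1, Lyz2 and Itgax interleave.

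Gpnmb (chr6:49036546-49070929 in GRCm38, plus strand), a lysosome-associated glycoprotein of lipid-laden macrophages, had the largest rise of the 10 markers. Its FPKM was 34.5 at the lowest, 46.3 at the median and 64.0 at the highest in the PZH mice, and 9.93, 21.4 and 27.9 in the control mice. The groups did not overlap, and control mouse 1 was far below the other control mice. The group means were 47.2 ± 10.6 (SD, n = 6) and 20.98 ± 6.24 (SD, n = 6), a log2 fold change of 1.17 (SE 0.22, 95% interval 0.70 to 1.63, adjusted p = 0.000828 by limma), or 1.28 above the median of all genes. Gpnmb was the only marker whose groups did not overlap in the upward direction, against 6.46% of all genes. Transcript Gpnmb-201 made up 95.9% of the gene value with PZH and 98.2% in control livers, and both listed transcripts were called higher, with log2 fold changes of 1.13 for Gpnmb-201 and 1.07 for Gpnmb-203 (adjusted p = 0.00385 and 0.0155 by limma over all 29883 transcripts).

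Trem2 (chr17:48346401-48354147, plus strand) encodes a lipid-sensing receptor of the macrophage surface. Its FPKM was 6.64, 8.99 and 12.8 at the lowest, median and highest in PZH mice and 3.74, 5.49 and 8.80 in controls. Of the control mice 5 lay below every PZH mouse, and the exception was control mouse 3 with 8.80. The means were 9.16 ± 2.26 (SD, n = 6) and 5.58 ± 1.83 (SD, n = 6), with a log2 fold change of 0.64 (SE of 0.18, adjusted p = 0.0124 by limma). Of its 2 listed transcripts only Trem2-202 was called higher, and the difference between the transcripts was not tested. Trem2-202 ranged from 5.91 to 11.7 FPKM in PZH mice and from 2.84 to 5.38 in controls, with a log2 fold change of 0.83 (SE of 0.17, adjusted p = 0.00522 by limma). Trem2-201 had a log2 fold change of 0.01 (95% interval -0.87 to 0.89, adjusted p = 0.991 by limma), an interval that includes the value of Trem2-202. Control mouse 3 had 5.78 FPKM of Trem2-201, 65.8% of its Trem2 value, against at most 1.998 in any PZH mouse. Both transcripts have 5 exons and the same end, with lengths of 1088 bases for Trem2-201 and 1056 bases for Trem2-202, so the division of reads between them rests on the transcript assembler.

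The windows of 250 bases before the RefSeq start of Trem2 and Gpnmb, the 2 markers that rose, are shown (GRCm38.p6, plus strand). The RefSeq start of Trem2 is that of Trem2-201, while Trem2-202 starts downstream of it, at base 48346488. Both listed Gpnmb transcripts start downstream of their window, Gpnmb-201 at base 49036615. The windows thus do not lie directly before the starts of the transcripts called higher. Capitals mark matches to 3 motifs, searched on both strands. PU.1, a transcription factor of the myeloid lineage, was searched by its core GAGGAAG. AP-1, a factor of immediate early responses, was searched by the letters TGANTCA, in which N is any base. The E-box of the lysosome regulators around Tfeb was searched as CACGTG.
Trem2 chr17:48346151-48346400: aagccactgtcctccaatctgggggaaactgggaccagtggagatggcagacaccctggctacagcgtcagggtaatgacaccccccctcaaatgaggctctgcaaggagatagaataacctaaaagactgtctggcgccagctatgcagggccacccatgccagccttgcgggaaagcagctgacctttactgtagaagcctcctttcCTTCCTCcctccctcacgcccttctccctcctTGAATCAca
Gpnmb chr6:49036268-49036517: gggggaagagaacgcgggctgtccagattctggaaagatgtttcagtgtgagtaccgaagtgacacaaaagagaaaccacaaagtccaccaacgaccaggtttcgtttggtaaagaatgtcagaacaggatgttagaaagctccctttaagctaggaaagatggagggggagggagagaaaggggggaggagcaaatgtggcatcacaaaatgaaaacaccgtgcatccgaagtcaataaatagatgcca
In the Trem2 window the PU.1 core stood on the minus strand at base -41 from the RefSeq start. A match to the AP-1 letters, TGAATCA, stood at base -9, and the Gpnmb window held none of the 3 motifs. All 10 markers had a window, 12 windows in all since Spp1 and Ly6c2 had 2 each. The PU.1 core was found in 5 of the 12, those of Trem2, Itgam, the upstream start of Spp1 and both of Ly6c2, against 10.6% of the 32817 windows of all genes. The 2 windows of Ly6c2 overlap and share a match, so they are not independent counts. The AP-1 letters were found in 3 of the 12, against 6.75%, as TGAATCA in Trem2 and as TGAGTCA in Itgax and Cd68. The E-box was found in 0 of the 12, against 6.02%. The letters were thus held by markers that rose, markers that fell and markers that were not called.

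Lgals3 (chr14:47367751-47386160, plus strand) encodes galectin-3, a sugar-binding protein secreted by macrophages, and had the largest fall of the 10 markers. Its FPKM was 15.8, 28.2 and 45.5 at the lowest, median and highest in PZH mice and 45.1, 70.3 and 102 in controls. The groups touched at 1 pair, PZH mouse 1 with 45.5 and control mouse 1 with 45.1, and were otherwise apart. The means were 28.8 ± 9.82 (SD, n = 6) and 71.7 ± 24.4 (SD, n = 6), so Lgals3 fell by 1.29 on the log2 scale (SE 0.25, adjusted p = 0.00127 by limma), a 2.44-fold lower value on that scale. Gpnmb and Lgals3 were the 2 markers that passed a 2-fold change with an unadjusted P under 0.05, the threshold of the study, against 4.02% of all genes. The main isoform Lgals3-204 was at 7.17 to 37.9 FPKM in PZH mice and 38.1 to 81.4 in controls, with a log2 fold change of -1.37 (SE of 0.33, adjusted p = 0.0124 by limma). Lgals3-201 did not pass the test (log2 fold change -0.94, adjusted p = 0.184 by limma), and control mice 4, 5 and 6 had 37.7, 17.5 and 39.9 FPKM of it while the other control mice had 5.80 to 9.07.

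Cd9 (chr6:125460266-125494791, minus strand), a tetraspanin that organises membrane proteins in many cell types, had the largest change relative to its standard error of the 10 markers. Its FPKM was 26.7, 30.1 and 36.2 at the lowest, median and highest in PZH mice and 41.0, 48.2 and 55.8 in controls. Every PZH mouse lay below every control mouse, which was so for 17.9% of all genes. The log2 fold change was -0.63 (SE 0.10, adjusted p = 0.000396 by limma), and the means were 31.04 ± 3.86 (SD, n = 6) and 48.6 ± 6.75 (SD, n = 6). Cd9 has a single listed transcript. The 95% interval was -0.85 to -0.40 for Cd9 and -1.83 to -0.74 for Lgals3, and the difference between the falls of these genes was not tested.

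**Figure D2:**
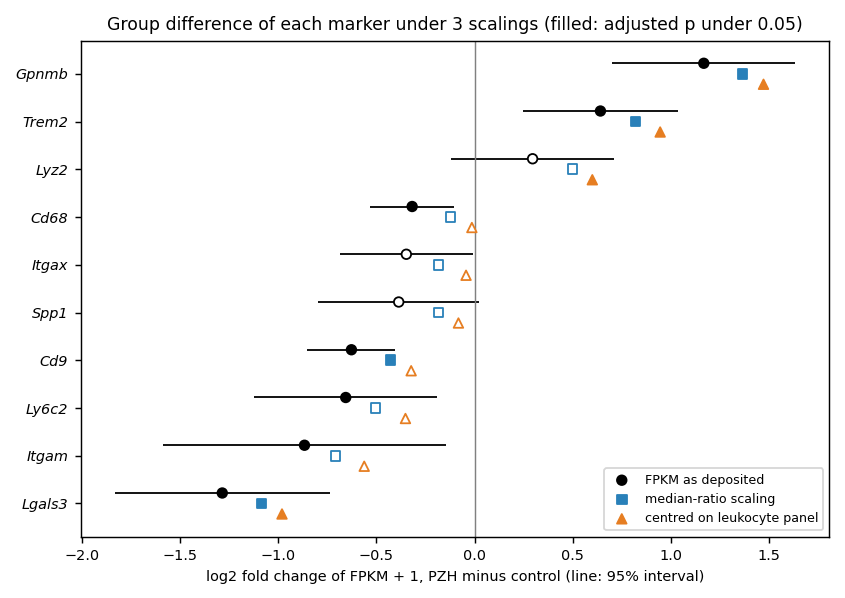
Log2 fold change of FPKM + 1 (x axis, PZH minus control) of each marker (y axis) from the deposited FPKM (circles with 95% interval), after median-ratio scaling (squares) and after centring each mouse on a panel of 16 leukocyte genes (triangles), filled where the adjusted p is under 0.05. Gpnmb, Trem2 and Lgals3 are filled under all 3, while Cd68 moves from -0.32 to -0.12 and -0.01.

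Spp1 (chr5:104435118-104441050, plus strand) encodes osteopontin and did not pass the test as a gene. Its FPKM was 59.3, 94.1 and 126 at the lowest, median and highest in PZH mice and 85.0, 125 and 142 in controls, with broad overlap. The means were 94.1 ± 26.9 (SD, n = 6) and 121 ± 22.3 (SD, n = 6), with a log2 fold change of -0.39 (SE 0.19, 95% interval -0.80 to 0.02, adjusted p = 0.116 by limma). The gene value joined transcripts from separate start sites. Of the 5 listed transcripts 4 begin at the upstream start, at or just after base 104435118, and Spp1-204 begins at base 104436192, 1074 bases downstream. The RefSeq table (GRCm38.p6) holds a window of 250 bases before each start, and they are shown because the transcript called lower begins at the downstream start. Capitals mark the PU.1 core, and no other motif searched was found. By the GENCODE annotation the downstream window lies in the first intron of the upstream transcripts.
Spp1 upstream start, chr5:104434861-104435110: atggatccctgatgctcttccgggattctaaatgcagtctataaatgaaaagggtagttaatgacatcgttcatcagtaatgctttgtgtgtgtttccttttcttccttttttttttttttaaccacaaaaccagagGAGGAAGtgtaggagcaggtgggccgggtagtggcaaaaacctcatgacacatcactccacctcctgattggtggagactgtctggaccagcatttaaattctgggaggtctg
Spp1 downstream start, chr5:104435942-104436191: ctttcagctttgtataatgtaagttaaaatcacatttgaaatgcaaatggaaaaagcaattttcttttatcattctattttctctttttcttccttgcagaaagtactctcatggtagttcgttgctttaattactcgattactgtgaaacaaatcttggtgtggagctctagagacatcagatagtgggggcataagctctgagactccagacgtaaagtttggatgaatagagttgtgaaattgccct
Transcripts from the upstream start summed to 39.7, 67.9 and 88.9 FPKM at the lowest, median and highest in PZH mice and 14.2, 73.9 and 95.9 in controls. The PZH mice lay inside the range of the control mice, and the means were 63.0 ± 19.1 (SD, n = 6) and 63.5 ± 32.8 (SD, n = 6). The downstream transcript Spp1-204 was at 19.6, 28.6 and 49.7 FPKM in PZH mice and 44.4, 51.1 and 93.5 in controls. Only PZH mouse 1, with 49.7, reached into the range of the control mice. Spp1-204 fell by 0.88 on the log2 scale (SE 0.23, adjusted p = 0.0171 by limma), while the main upstream transcript Spp1-201 had a log2 fold change of 0.13 (SE of 0.41, adjusted p = 0.869 by limma). The downstream start gave 24.3% to 40.8% of the Spp1 value in PZH mice and 31.6% to 86.8% in controls, and the 86.8% belonged to control mouse 1, which had the lowest upstream value. After median-ratio scaling the Spp1-204 difference was -0.70 and not called (adjusted p = 0.0628 by limma, with a range of 0.0101 to 0.0628 over the 4 other settings run on transcripts). The difference between the start sites was not itself tested. The isoforms share most of their exons, so the split rests on reads that cross the first exons.

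**Figure D3:**
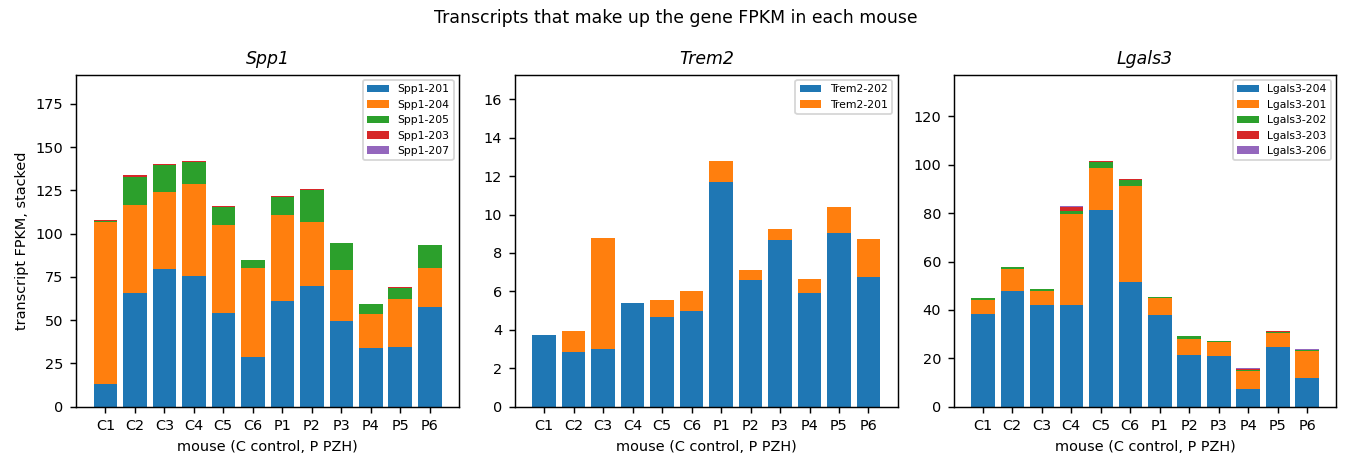
Transcript FPKM (y axis, linear) stacked to the gene value of Spp1, Trem2 and Lgals3 in each control mouse (C1 to C6) and PZH mouse (P1 to P6). Spp1-204 is larger in the control mice while Spp1-201 varies within both groups, Trem2-202 is larger in the PZH mice, and Trem2-201 stands out in control mouse 3.

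Over all 26 transcripts of the 10 markers, 3 were called higher, Trem2-202, Gpnmb-201 and Gpnmb-203, against 5.73% of all transcripts. The 4 called lower were Spp1-204, Cd9-201, Lgals3-204 and Itgam-203, against 14.0% of all transcripts. A 2-fold change with an unadjusted P under 0.05 was reached by Gpnmb-201, Gpnmb-203 and Lgals3-204, against 3.23% of all transcripts. Of the 26 transcripts 17 had a mean FPKM of at least 1, and 5 were listed at 0 in at least 1 mouse. All 10 genes had a mean FPKM of at least 1 and none was at 0 in any mouse.

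Among the markers of monocytes and of the whole macrophage compartment, Ly6c2 (chr15:75108158-75111970, minus strand), a surface antigen of inflammatory monocytes, was low in all mice. Its FPKM was 1.41, 2.098 and 4.65 at the lowest, median and highest in PZH mice and 2.72, 3.97 and 6.40 in controls. Of the PZH mice 5 lay below every control mouse, and PZH mouse 3 was the exception. Ly6c2 fell by 0.66 on the log2 scale (SE 0.22, adjusted p = 0.0250 by limma), but the call was lost without PZH mouse 1, PZH mouse 6, control mouse 4 or control mouse 6, with adjusted p between 0.00327 and 0.0575 over the 12 fits that leave out a mouse. After median-ratio scaling its difference was -0.51 and not called (adjusted p = 0.0718 by limma, with a range of 0.0206 to 0.108 over the 9 other settings). None of its 3 transcripts was called by limma. Ly6c2 and its neighbour Ly6c1, an endothelial and lymphocyte antigen, are near copies. Of the windows of Ly6c2-201, 5.79% of those of 150 bases and 49.2% of those of 31 bases also occur in Ly6c1. Some reads could thus belong to either. Ly6c1 was at 0.464 ± 0.267 FPKM (SD, n = 6) with PZH and 0.730 ± 0.964 FPKM (SD, n = 6) without it and was not called (adjusted p = 0.833 by limma).

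Itgam (chr7:128062640-128118491, plus strand), the CD11b chain carried by monocytes, macrophages and neutrophils, was at 1.16, 3.01 and 4.24 FPKM at the lowest, median and highest in PZH mice and 1.93, 6.45 and 11.98 in controls. Of the control mice 4 lay above every PZH mouse, and control mice 1 and 6 lay within their range. Itgam fell by 0.87 on the log2 scale (SE 0.33, adjusted p = 0.0493 by limma). This call was lost without any one of PZH mice 1, 2, 4, 5 and 6 and control mice 2, 3, 4 and 5, with adjusted p from 0.00786 to 0.108 over the 12 fits. Its call was also lost after median-ratio scaling (log2 fold change -0.71, adjusted p = 0.105 by limma), and the range over the 9 other settings was 0.0405 to 0.273. Of its transcripts Itgam-203 fell by 0.89 (adjusted p = 0.0178 by limma), and Itgam-205, which held most of the gene value, did not pass the test (log2 fold change -0.75, SE 0.51, adjusted p = 0.354 by limma). Neutrophils share Itgam, and of 13 neutrophil genes Mmp9 (-1.003), Cxcr2 (-0.66) and Csf3r (-0.64) were the 3 called lower, against 32.1% of all genes. By limma 0 were called higher and 1 was higher at an unadjusted P under 0.05. The median log2 fold change of the neutrophil list was 0.12, and that of all genes was -0.11, so the list as a whole did not fall. Its largest positive difference was that of Ngp (1.16, adjusted p = 0.0962 by limma), which was not called. After centring on the leukocyte panel described further on, 6 were called higher and 1 lower. That centring moves all genes of a mouse by the same log2 amount, also those near 0. Of the 13 genes 8 had medians under 1 FPKM. The summed neutrophil FPKM was 15.7 to 181 in the PZH mice, with PZH mouse 3 highest, and 22.6 to 71.3 in the control mice. The part of neutrophils in the Itgam difference was not tested.

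Itgax (chr7:128129547-128150657, plus strand), the CD11c chain of dendritic cells and lipid-laden macrophages, was at 2.66, 3.62 and 4.997 FPKM at the lowest, median and highest in PZH mice and 3.46, 5.04 and 6.46 in controls. The groups overlapped, with 3 PZH mice between 2.66 and 2.90 and the other 3 between 4.34 and 4.997. The log2 fold change was -0.35 (SE 0.16, 95% interval -0.69 to -0.01, adjusted p = 0.0882 by limma), and of the 12 fits that leave out a mouse Itgax was called in those without control mouse 1, PZH mouse 2 or PZH mouse 5 (adjusted p down to 0.0395).

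Cd68 (chr11:69664213-69666153, minus strand) is a lysosomal protein of macrophages and is the divisor of most ratios given below. Whether Cd68 followed the total of these cells was not tested. Its FPKM was 17.3, 22.2 and 25.1 at the lowest, median and highest in PZH mice and 24.3, 26.4 and 32.5 in controls. Of the PZH mice 4 lay below every control mouse. Cd68 fell by 0.32 on the log2 scale (SE 0.10, adjusted p = 0.0200 by limma). The difference was -0.12 after median-ratio scaling (adjusted p = 0.253 by limma), and adjusted p ranged from 0.0193 to 0.941 over the 9 other settings.

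Lyz2 (chr10:117277331-117282321, minus strand), lysozyme of monocytes, macrophages and neutrophils, had the highest level of the 10 markers in both groups. Its FPKM was 159, 240 and 320 at the lowest, median and highest in PZH mice and 137, 179 and 260 in controls. The groups overlapped, although 3 PZH mice lay above every control mouse. The log2 fold change was 0.29 (SE 0.19, 95% interval -0.12 to 0.71, adjusted p = 0.232 by limma). No 150-base window of its transcript occurs in the paralog Lyz1, but 32.8% of its 31-base windows do. Lyz1 was at 0.279 FPKM with PZH and 0.196 in control livers and was not called (adjusted p = 0.358 by limma).

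FPKM is divided by length, so levels of the markers can be put in order. In the control group the mean gene FPKM fell in the order Lyz2, Spp1, Lgals3, Cd9, Cd68, Gpnmb, Itgam, Trem2, Itgax and Ly6c2. In the PZH group the order was Lyz2, Spp1, Gpnmb, Cd9, Lgals3, Cd68, Trem2, Itgax, Itgam and Ly6c2, so Gpnmb moved from rank 6 to rank 3 and Lgals3 from rank 3 to rank 5. Neighbours in these orders whose ranges overlapped were not set apart by their levels, as for Cd9 and Lgals3 in the PZH mice, with 26.7 to 36.2 and 15.8 to 45.5 FPKM.

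Ratios within a mouse cancel any scale factor of its library, and the following were chosen after the values were seen and are given with no test. Cd68 itself was lower in the PZH group (log2 fold change -0.32), which lifts the ratios over Cd68 there. Gpnmb over Cd68 was 1.61, 2.22 and 2.62 at the lowest, median and highest in PZH mice and 0.408, 0.768 and 1.05 in controls, with no overlap. Trem2 over Cd68 was 0.294 to 0.635 in PZH mice and 0.148 to 0.335 in controls, and 5 PZH mice lay above every control mouse. Lyz2 over Cd68 was 6.54 to 15.8 against 5.64 to 8.94, with 5 PZH mice above every control mouse. In the other direction Lgals3 over Cd68 was 0.912 to 2.25 against 1.85 to 3.62, with 5 PZH mice below every control mouse. Gpnmb over Lgals3 was 1.16, 1.82 and 2.18 in PZH mice and 0.220, 0.257 and 0.483 in controls, so Gpnmb exceeded Lgals3 in every PZH mouse and in no control mouse. For Spp1 over Cd68 the ranges were 2.82 to 6.05 and 3.26 to 5.34, and the ranges of Itgax over Cd68 were 0.132 to 0.206 and 0.142 to 0.199, both with broad overlap.

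**Figure D4:**
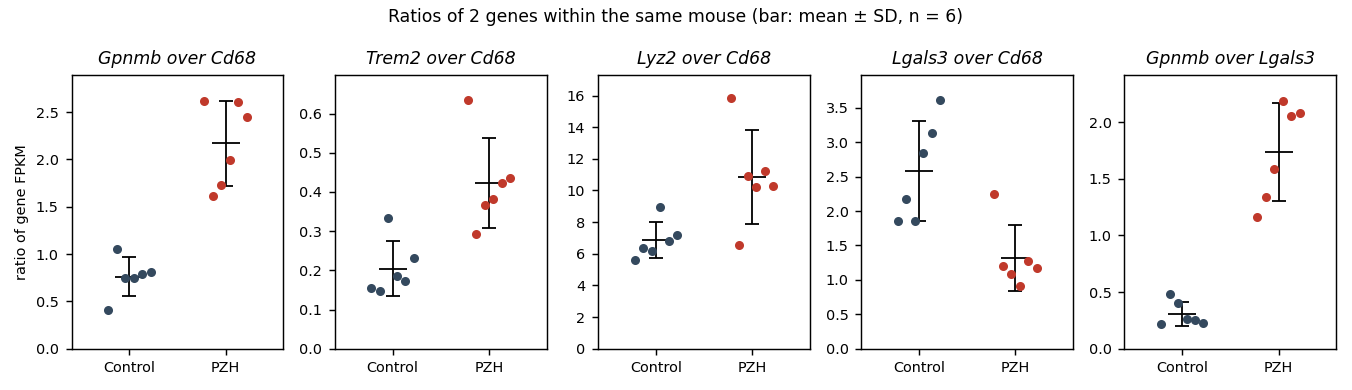
Ratio of the FPKM of 2 genes within the same mouse (y axis, linear, from 0) in the 6 control mice (dark) and the 6 PZH mice (red), with the mean and SD as a bar. Gpnmb over Cd68 and Gpnmb over Lgals3 do not overlap between the groups, and Lgals3 over Cd68 is lower in 5 PZH mice than in every control mouse.

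The markers were also read against a panel of 16 genes that leukocytes share, such as Ptprc and Cd53, to set them beside the total leukocyte signal. Of the panel 6 genes were called lower by limma and 0 higher, also at an unadjusted P under 0.05, with falls of Coro1a (log2 fold change -0.90) and Rac2 (-0.62) among them. Of all genes 32.1% were called lower and 12.7% higher. The summed FPKM of the panel was 176 to 254 in PZH mice and 213 to 317 in controls. After centring each mouse on the mean log2 value of this panel, Trem2 had a log2 fold change of 0.94, Gpnmb 1.47, Lyz2 0.60 (adjusted p = 0.00449 by limma) and Lgals3 -0.98, and these 4 were called. The range of adjusted p for Lyz2 over the 9 other settings was 0.00449 to 0.298. Cd9 was then at -0.32 and no longer called (adjusted p = 0.103 by limma), with a range of 0.000289 to 0.103 over the 9 other settings, and Cd68 was at -0.01. Calls over all genes then leaned upward, with 3234 higher and 859 lower.

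Genes that accompany the scar-associated state in published macrophage subsets, involved in lipid uptake and lysosomal breakdown, were mixed. Of 28 measured genes 4 were called higher and 9 lower, with a median log2 fold change of 0.03. Of all genes 12.7% were called higher and 32.1% lower, and the list was close to these shares. The counts of the lists that follow stand beside the same shares. The direction of this list turned with the scaling, to 13 higher and 6 lower after median-ratio scaling and 12 higher and 3 lower after centring on the leukocyte panel. Among the rises were Atp6v0d2 (0.81), a subunit of the lysosomal proton pump, and Lipa (0.38), the lysosomal acid lipase, and the groups did not overlap for either gene. Atp6v0d2 was at 6.15, 8.13 and 10.5 FPKM at the lowest, median and highest in PZH mice and 2.41, 4.66 and 5.65 in controls. The largest falls were Plin2 (-1.99), a lipid droplet coat protein that hepatocytes also make, and the matrix metalloproteinases Mmp12 (-1.36) and Mmp14 (-0.96). Plin2 was at 108 to 126 FPKM in PZH mice and 316 to 675 in controls.

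Genes of blood monocytes were mostly lower, with 14 of 22 called lower, 2 higher and a median log2 fold change of -0.68. The 6 not called included Ccr2 (-0.25, adjusted p = 0.168 by limma), Cx3cr1 (0.58) and Irf8 (0.05). After median-ratio scaling 12 were called lower and 2 higher, and after centring on the leukocyte panel 11 lower and 4 higher. The largest falls were Cd14 (-2.73), the lipopolysaccharide co-receptor, Chil3 (-1.62), a chitinase-like protein, and S100a4 (-1.53), a calcium-binding protein. Cd14 was at 3.35, 6.01 and 17.3 FPKM at the lowest, median and highest in PZH mice and 34.6, 53.4 and 71.9 in controls, with no overlap. Csf1r (0.38), the receptor of macrophage colony-stimulating factor, was among the higher genes. The summed FPKM of the list was 84.1 to 141 in PZH mice and 149 to 255 in controls.

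Resident Kupffer cell genes went both ways, with 3 of 16 higher and 3 lower and a median of 0.08, or 9 higher and 3 lower after median-ratio scaling. Clec4f (0.60), a Kupffer cell lectin, Vsig4 (0.57), a complement receptor, and Mrc1 (0.35), the mannose receptor, rose, and Marco (-2.21), a scavenger receptor, Id3 (-1.11), a transcriptional regulator, and Hmox1 (-1.07), haem oxygenase, fell. The summed FPKM of the list was 452 to 627 in PZH mice and 507 to 607 in controls.

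Ligands and receptors for macrophage growth and recruitment included some of the largest falls in the lists. Of 10 measured genes 4 fell and 1 rose, also after median-ratio scaling. Ccl2 and Ccl7, chemokines that draw monocytes from the blood, fell by 2.30 and 2.61 on the log2 scale. Ccl2 was at 0.396, 0.666 and 1.17 FPKM at the lowest, median and highest in PZH mice and 4.90, 6.15 and 16.5 in controls, with no overlap. The macrophage growth factors Il34 and Csf1 fell by 0.90 and 0.48, and the gene that rose was their receptor Csf1r.

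Of 15 genes of Trem2 signalling and shedding 0 were called higher by limma, also at an unadjusted P under 0.05, and 5 were called lower. After median-ratio scaling 1 was higher and 3 lower, and after centring on the leukocyte panel 1 was higher and 0 lower. The named falls were Trem3 (-0.59), Ms4a4a (-0.46) and Trem1 (-0.41), and the other receptors Trem1 and Trem3 had means under 1 FPKM in both groups. Tyrobp, the adaptor that TREM2 signals through, was at 44.4 to 70.0 FPKM in PZH mice and 40.4 to 68.4 in controls and was not called (adjusted p = 0.801 by limma).

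Osteopontin binds CD44 and several integrins, and of 11 such receptors and integrin partners 8 were called lower by limma and 0 higher, also at an unadjusted P under 0.05, with a median of -0.47. After median-ratio scaling 4 were lower and 1 higher. The largest falls were Cd44 (-1.02), Icam1 (-0.95) and Itgb3 (-0.81). Cd44 was at 12.1, 14.9 and 18.0 FPKM in PZH mice and 22.1, 31.3 and 40.8 in controls, with no overlap. Itgb2, which pairs with both CD11b and CD11c, fell by 0.55, and its difference was -0.36 and not called after median-ratio scaling (adjusted p = 0.0640 by limma).

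The families of Lgals3 and Cd9 were read for comparison. Of 6 measured galectin genes 2 were called higher, Lgals4 (0.86), which is made by epithelial cells, and Lgals9 (0.24). By limma 0 were lower, also at an unadjusted P under 0.05 and under the 3 other scalings. The median log2 fold change of the galectin list was -0.16, so the family did not rise as a whole. Of 12 other tetraspanin genes 6 were called lower by limma and 0 higher, also at an unadjusted P under 0.05, led by Tspan4 (-0.97), Cd53 (-0.56) and Cd82 (-0.43), but 1 was lower and 1 higher after median-ratio scaling. Of 8 regulators of lysosome and lipid genes Ppargc1b (0.84) was higher and Tfe3 (-1.02), a relative of the master lysosome factor Tfeb, and Pparg (-0.78) were lower, and after median-ratio scaling 2 were higher and 2 lower.

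**Figure D5:**
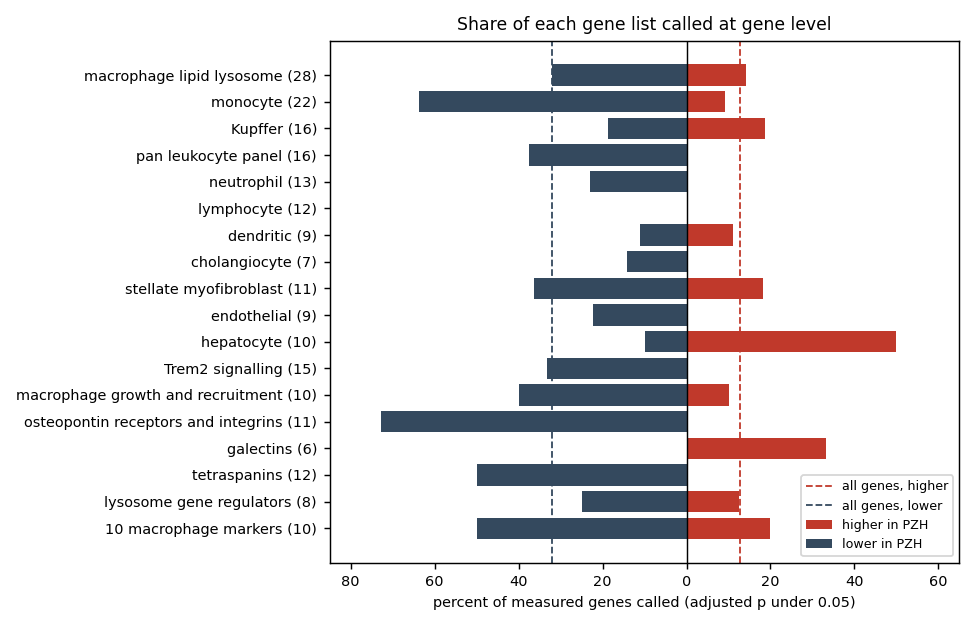
Percent of the measured genes of each list called at an adjusted p under 0.05 (x axis, lower in PZH to the left, higher to the right), from the deposited FPKM, with the number measured in brackets on the y axis and the shares of all genes as dashed lines. The monocyte list and the list of osteopontin receptors and integrins reach furthest to the left, and the hepatocyte list furthest to the right.

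Markers of the other liver cells were read because they can share the 10 markers or change the proportions of the tissue. The labelled tissue held strong hepatocyte genes, whose summed FPKM was 44575 to 61637 in PZH mice and 27492 to 40717 in controls, with no overlap and 5 of 10 called higher and 1 lower. Cyp2e1 (2.24), G6pc (1.67) and Cps1 (0.85) rose the most and Fgb (-1.17) fell. Of 7 measured bile duct genes Sox9 fell by 1.64 and no other was called, Krt19 was at 2.01 to 4.16 FPKM in PZH mice and 1.79 to 4.45 in controls, and the summed FPKM was 36.3 to 61.1 and 63.2 to 67.8. Of 11 stellate cell and myofibroblast genes Reln (0.98) and Col3a1 (0.62) rose, and 4 fell, led by Timp1 (-2.13), Acta2 (-0.92) and Lox (-0.57), which turned to 5 higher and 1 lower after centring on the leukocyte panel. Of 9 dendritic cell genes Cd209a (0.47) rose and Ccr7 (-0.72) fell, at means of 0.767 and 0.336 FPKM with PZH and 0.259 and 1.22 FPKM without it. Of 9 endothelial genes Lyve1 (-0.62) and Pecam1 (-0.29) fell, against 32.1% of all genes, and 2 were higher and 1 lower after median-ratio scaling. Of 12 lymphocyte genes 0 were called by limma, also at an unadjusted P under 0.05, 2 were called higher after median-ratio scaling, and 11 of them had medians under 1 FPKM. The part of these cells in the differences of Spp1, Cd9 and Lgals3 was not tested.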

How the data were processed

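From the total RNA of 12 livers the authors made ribosome-depleted, strand-specific libraries and read 150 bp from both ends. The authors aligned to GRCm38 with HISAT2 (2.1.0), quantified Ensembl 95 transcripts with StringTie (1.3.5), and deposited FPKM values per transcript and mouse. FPKM are not read counts, the depth of each library is unknown here, and precision comes from the spread between mice, with 6 mice per group. The table of lncRNA transcripts was not used.

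Gene FPKM was the sum over the transcripts of a gene in GENCODE M21 (29876 of 29883 transcripts matched, 14188 genes). Groups were compared with limma 3.58.1 (R 4.3.3) on log2(FPKM + 1), a pseudocount of 1, with no filter and no covariate, and Benjamini-Hochberg adjustment over all genes or all transcripts. A fold change on this scale understates that of low genes. The procedure was tested on simulated data. Each sample was assigned to its group by its title. The labels give no batch.

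The 10 markers and the gene lists were chosen with earlier results of these data known. From each list at most the 3 largest called rises and the 3 largest called falls were named, and for each called marker the 3 genes (mean FPKM of at least 1) with the highest group-centred Pearson correlation. Some genes that this rule gave are not reported here. Other genes in the text, among them Tyrobp, Krt19 and Itgb2, were named after their values were seen. Some genes stand in more than 1 list, such as Tyrobp, Csf1r, Cd53 and Itgb2. The other settings tried were 0.1 as pseudocount, only genes with a mean FPKM of at least 1, median-ratio scaling, an equal sum per mouse, centring on the leukocyte panel, the highest transcript per gene, a mean-variance trend, robust moderation, the mouse number as a block, each mouse left out in turn, and the 2-fold threshold of the study. The separation of the Spp1 start sites and the ratios within a mouse were added after seeing the data. Promoter windows were read from RefSeq on GRCm38.p6. The other steps were run in Python 3.11.15 (numpy 2.4.6, pandas 2.3.3, matplotlib 3.10.9, scipy 1.17.1).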

Additional observations from a re-analysis of the deposited data

Results flagged for a closer look

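The highest and the lowest mouse of each group were compared with the rest of their group in 24 groups (the 10 markers and the 2 Spp1 start sites in each group). The measure was the gap to the nearest mouse over the range of the group, both on log2(FPKM + 1). The ratios below therefore hold for that log2 scale and not for the FPKM printed beside them. Of these, 2 passed Dixon's critical value for 6 mice, and chance alone flags about 1 in 20 groups. Gpnmb in control mouse 1 was at 9.93 FPKM, below the other control mice, with a ratio of 0.650. Spp1-204, from the downstream Spp1 start, was at 93.5 FPKM in the same mouse, above the other control mice, with a ratio of 0.759. Without control mouse 1 the Gpnmb call was kept, as it was in all 12 fits that left out a mouse.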

How the results depend on the processing

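Trem2, Gpnmb and Lgals3 were called in the same direction under all 9 other settings, with log2 fold changes of 0.60 to 0.94, 1.13 to 1.47 and -1.37 to -0.98, and without each mouse in turn. Cd9 and Cd68 also kept their calls in all 12 fits without a mouse. Against 6358 called genes from the deposited FPKM, separate fits called 4093 after centring on the leukocyte panel and 570 at a 2-fold change with an unadjusted P. Against 7 called markers, 4 were called after median-ratio scaling, 4 after centring, among them Lyz2, and 2 at the 2-fold threshold. For transcripts the 2-fold threshold gave 966 calls, 3 of them of the markers. With the highest transcript in place of the sum, Spp1 turned to a log2 fold change of 0.13, and with its downstream start alone it was -0.88. Leaving out a mouse moved the gene calls between 5597 and 6437, the called markers between 5 and 8, the transcript calls between 4876 and 5939 and the called marker transcripts between 7 and 9. It turned the sign of Trem2-201 (-0.18 to 0.37) and Spp1-201 (-0.21 to 0.29), which were not called. The causes of these shifts were not tested. The depth is unknown, which limits the lowest transcripts most.

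Mice with the same number in both groups did not deviate together (correlations of -0.0784 to 0.0929 over 6 pairs, 0 over 0.1, and 0 mice correlated best with their own number). The values thus gave no sign of pairing by number. This check cannot show whether mice of the same number were handled together. With the number as a replicate block 5982 genes and 6 markers were called, with Itgax gained (adjusted p = 0.0381, limma) and Ly6c2 and Itgam lost. Of the transcripts Gpnmb-203 (adjusted p = 0.0821) and Itgam-203 (adjusted p = 0.0782) lost their calls with the block.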

Other observations

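Mice ranked alike across several markers. Control mouse 1 was the lowest of its group for 7 of the 10 markers and PZH mouse 4 for 6, while control mouse 4 lay above the group mean of log2(FPKM + 1) for all 10. These counts are descriptions of single mice and were not tested.

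The genes whose FPKM followed each called marker most closely within the groups, by Pearson r over the 12 mice after removal of the group means, were as follows. For Gpnmb they were Capn6 (0.94), Atp6v0d2 (0.94) and Phyhd1 (0.92), and Atp6v0d2 was also the largest rise of the lipid and lysosome list. For Trem2 they were Frk (0.88), Zfp788 (0.85) and Atraid (0.84). Cd9 was followed by Crem (0.94), Sept10 (0.93) and Zfp948 (0.93), and Lgals3 by Ssr4 (0.92) and Capg (0.90), the latter an actin-capping protein of macrophages. Cd68 was followed by Aldh3b1 (0.92), Basp1 (0.90) and Sh3bgrl3 (0.90), Itgam by Hdac9 (0.90), Hnrnpl (0.87) and Dzip3 (0.87), and Ly6c2 by Kmt5a (0.88), Treml4 (0.88) and Ccnt2 (0.87). The mice of each correlation share their libraries and scaling, and the genes were the top of a search over all genes.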
